A study of Mus musculus with 4 samples.

Results

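The microRNAs miR-23a, miR-27a, miR-23b, miR-27b and miR-24 were followed through early molar development in the mouse. They are the main products of a pair of paralogous gene clusters and were chosen by probe name (mmu-miR-23a, mmu-miR-27a, mmu-miR-23b, mmu-miR-27b and mmu-miR-24, no asterisk), giving 5 of the 696 miRNA probes of the array. miR-23a and miR-27a come from the a cluster alone and miR-23b and miR-27b from the b cluster alone, whereas miR-24 is made by both. Total RNA of mandibular molar tooth germs from embryos of the outbred ICR mouse strain was measured on 1 one-colour Agilent array per stage, without treatment. The stages were embryonic day 11 (E11), 12 (E12), 14 (E14) and 16 (E16). The sources used here do not give how many embryos went into an array. With 1 array per stage there are no replicates and no test between stages. Every error printed with ± is the measurement error the arrays state, which leaves out how embryos or litters vary.

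A microRNA guides silencing complexes to messenger RNAs mainly through its seed, bases 2 to 8, so miRNAs with the same seed share many targets. The members of each cluster are cut from 1 primary transcript, and their amounts can still differ through processing and turnover. miR-23a is known in mouse osteoblasts for repressing Runx2, a transcription factor that teeth and bone both need. miR-27a and miR-27b are known for repressing Pparg in fat cell differentiation. miR-23 and miR-27 also act in endothelial cells during vessel growth, and miR-24 is known from human cells for repressing cell cycle genes such as E2F2 and MYC.

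The mature sequences are shown because they decide which probes can be told apart. They come from RefSeq (mouse build GRCm38.p6), where 4 of the 5 members matched a mature entry, and miR-23b is named only. Capitals mark the seed.
miR-23a: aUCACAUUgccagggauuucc
miR-27a: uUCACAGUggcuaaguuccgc
miR-27b: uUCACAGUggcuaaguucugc
miR-24: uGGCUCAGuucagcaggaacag
miR-27a and miR-27b have the same seed and are alike at 20 of 21 positions. The 1 difference is C19U, counted from 1 at the 5′ end with the miR-27a base first. The seed of miR-23a differs from theirs at 1 base, and the seed of miR-24 at all 7. In the RefSeq table of 1679 mature names, UCACAGU was the seed of miR-27a and miR-27b only.

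The a cluster lies on the plus strand of chromosome 8, with the hairpins Mir23a, Mir27a and Mir24-2 in that order over 404 bases (chr8:84208518-84208921). The b cluster has Mir23b, Mir27b and Mir24-1 in the same order over 792 bases of the plus strand of chromosome 13 (chr13:63300484-63301275), inside the span of the protein-coding gene Aopep. The hairpins of miR-24 are shown because they differ while their mature product, in capitals, does not.
Mir24-2, a cluster: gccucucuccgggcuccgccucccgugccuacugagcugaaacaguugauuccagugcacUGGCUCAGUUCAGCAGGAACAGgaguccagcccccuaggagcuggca
Mir24-1, b cluster: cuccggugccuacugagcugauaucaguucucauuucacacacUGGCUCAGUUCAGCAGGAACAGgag
A miR-24 probe therefore reads both loci together. The probes miR-24-1* and miR-24-2*, for the other arms, would separate them, but neither was detected on any array, and nor were miR-27a* and miR-27b*. Undetected probes are written as 0.1 in the files, and the lowest detected signals of the arrays were 5.48 to 7.43. Of the 6 other arms looked for, these 4 had a probe on the array, and miR-23a* and miR-23b* had none under those names.

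The arrays detected 209, 221, 249 and 250 miRNAs at E11, E12, E14 and E16, and 197 at every stage. All 5 members were detected on all 4 arrays. The tooth germ is made of epithelium and mesenchyme. Of 7 epithelial marker miRNAs, 6 were detected at E11 and all 7 from E12 on, and all 4 mesenchymal ones were detected at each stage. None of 6 muscle miRNAs was detected.

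The deposited signals, which are not scaled between arrays, show the course of each member first. The signal of miR-27a was 42.8 ± 5.8 at E11, 188.6 ± 15.3 at E12, 346 ± 26 at E14 and 841 ± 62 at E16. miR-23a, its neighbour in the a cluster, had 222.2 ± 18.3, 644 ± 52, 1080 ± 86 and 1545 ± 122. Both a members were lowest at E11 and highest at E16, and no stage broke the order.

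In the b cluster, miR-27b had 135.6 ± 12.0 at E11, 345 ± 29 at E12, 509 ± 41 at E14 and 881 ± 71 at E16. miR-23b had 458 ± 38, 797 ± 65, 1160 ± 94 and 1462 ± 117. miR-24, the product of both clusters, had 411.5 ± 29.6, 942 ± 67, 1360 ± 97 and 1868 ± 133. These 3 also increased at each stage in the deposited signals, as did 29.9% of the 197 miRNAs detected throughout. Signals of different probes are not relative amounts, since probes differ in affinity, so only the courses are compared.

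**Figure D1:**
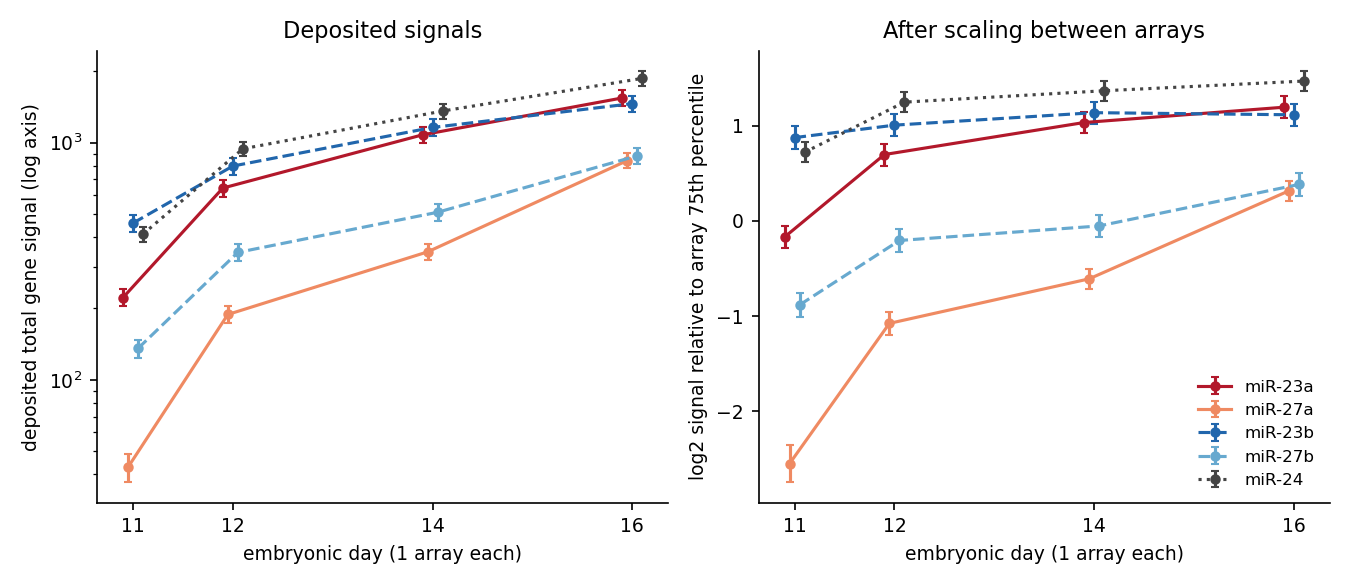
Signal of the 5 members by embryonic day, 1 array per day. Left, deposited total gene signal on a log axis; right, log2 signal relative to the 75th percentile of each array. Error bars are the measurement errors stated by the array, solid lines mark the a cluster, dashed lines the b cluster and the dotted line miR-24. miR-27a covers the widest range, and miR-23b is nearly flat after scaling.

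The brightness of the arrays differed between stages. The 75th percentile of the 197 miRNAs detected throughout was higher by 1.44 at E16 than at E11 on the log2 scale, so the signals were next taken as log2 relative to that percentile. On this scale the median of the 205 miRNAs detected at both stages was -0.74 for E16 minus E11. Members are read beside that median, and the ranges given cover 5 distinct scalings, the deposited signals among them.

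The first comparison, E16 versus E11, covers the whole series. miR-27a stood at 0.31 ± 0.11 at E16 and -2.55 ± 0.20 at E11 on the scaled log2 axis, a 7.27-fold difference (log2 2.86 ± 0.22, 2.83 to 4.30 over the scalings). It ranked 3 of 205. miR-23a stood at 1.19 ± 0.11 at E16 and -0.17 ± 0.12 at E11, or 2.57-fold higher (1.36 ± 0.16, 1.33 to 2.80), and ranked 20. Both a members passed 2-fold under every scaling.

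miR-27b stood at 0.38 ± 0.12 at E16 and -0.88 ± 0.13 at E11, or 2.40-fold higher (1.26 ± 0.17, 1.23 to 2.70), and ranked 23. miR-24 was 1.68-fold higher (0.75 ± 0.15, 0.71 to 2.18) and ranked 36. miR-23b stood at 1.11 ± 0.12 at E16 and 0.87 ± 0.12 at E11, which is 1.18-fold higher (0.24 ± 0.17, 0.21 to 1.67), and ranked 55. All 5 members lay above the median of all miRNAs, and their own median was 1.26. The b cluster thus held both a member past 2-fold, miR-27b, and the member nearest to 0, miR-23b.

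By a rule of size, a difference of 2-fold or more, 3 of the 5 members were higher and 0 lower, where 13.7% of all 205 miRNAs were higher and 37.6% lower. On the deposited signals all 5 passed 2-fold, where 44.9% of all miRNAs did. With median scaling and with quantile normalization miR-24 joined, for 4 of 5, where 21.5% and 16.1% of all miRNAs were 2-fold higher. The rank of a member does not depend on any constant scaling, and quantile normalization gave ranks of 3 for miR-27a, 18 for miR-23a, 25 for miR-27b, 27 for miR-24 and 53 for miR-23b.

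**Figure D2:**
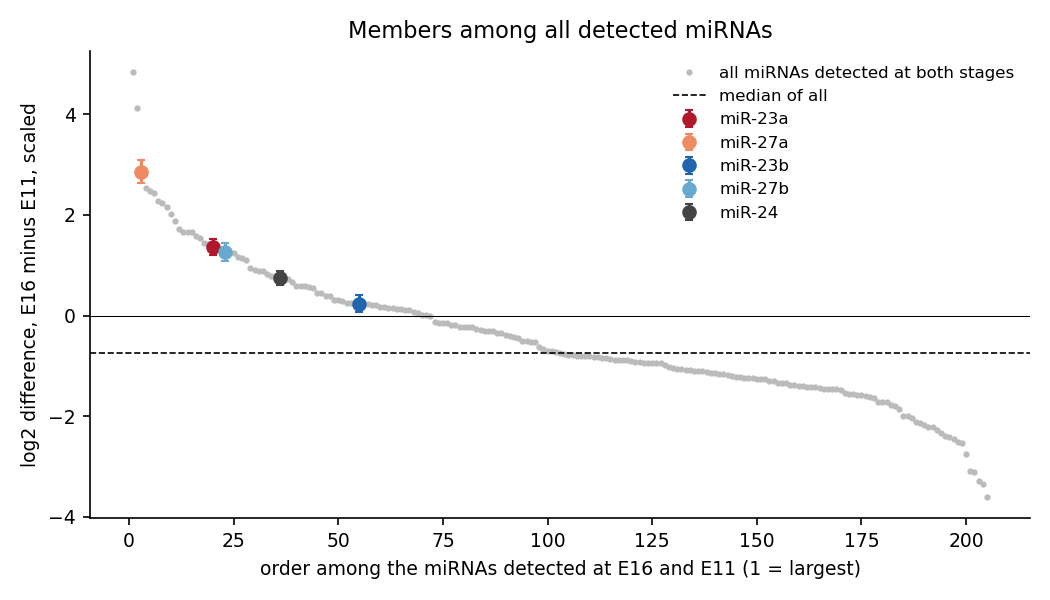
Log2 difference, E16 minus E11 after scaling, of the 205 miRNAs detected at both stages, in order of size. Grey points are all miRNAs, coloured points with measurement error bars the 5 members, and the dashed line the median of all, -0.74. miR-27a is the 3rd from the top and all 5 members lie above the dashed line.

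The differences were also set beside miRNAs of the same brightness class, in 4 classes of the 197 miRNAs by geometric mean signal over the 4 arrays. miR-27a and miR-27b fell in class 3, with 4 the brightest, where the 48 other miRNAs had a median of 0.0045. There, 2 of 48 had a larger difference than miR-27a, and 8 of 48 a larger one than miR-27b. miR-23a, miR-23b and miR-24 fell in class 4, where the others had a median of -0.75. That class is wide, with mean signals of 470 to 70325. Of those 48, 4 exceeded miR-23a, 8 exceeded miR-24 and 12 exceeded miR-23b. Relative to the median of its class, miR-27a was at 2.86, miR-23a at 2.12, miR-24 at 1.5, miR-27b at 1.26 and miR-23b at 0.99. The order is that of the differences themselves, except that miR-24 and miR-27b changed places.

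The a cluster was then compared with the b cluster. The measure was the change of the a member minus the change of the b member, in which a constant scaling of an array cancels. From E11 to E16 miR-23a changed by 1.12 ± 0.23 more than miR-23b on the log2 scale, a ratio of folds of 2.18. miR-27a changed by 1.60 ± 0.28 more than miR-27b, a ratio of folds of 3.03. These differences are 4.81 and 5.67 times their measurement errors. Quantile normalization, the only alternative scaling that can alter them, gave 1.18 and 1.91.

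The ratios of the paired probes' deposited signals give the same differences in another form, array by array, and are no further evidence. miR-23a over miR-23b was 0.485 at E11, 0.808 at E12, 0.931 at E14 and 1.06 at E16. miR-27a over miR-27b was 0.315, 0.547, 0.681 and 0.955. Both ratios were higher at each later stage. They are ratios of signals, not of amounts, and show unequal change rather than which cluster was more abundant.

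By step, the excess was largest for both pairs in the first. Between E11 and E12 miR-23a changed by 0.74 ± 0.24 more than miR-23b, and miR-27a by 0.79 ± 0.29 more than miR-27b. Between E12 and E14 the excess was 0.20 ± 0.23 for miR-23a, within its error, and 0.31 ± 0.23 for miR-27a. Between E14 and E16 it was 0.18 ± 0.23 for miR-23a, again within its error, and 0.49 ± 0.22 for miR-27a. For the miR-27 pair the later steps depend on the scaling, since quantile normalization gave 0.72 from E12 to E14 and 0.24 from E14 to E16. The sign was positive in all 3 steps for both pairs, with quantile normalization too. The other scalings cannot alter these differences.

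Members of 1 cluster also changed unequally, a comparison made after the values were seen. In the a cluster miR-27a changed by 1.5 ± 0.28 more than miR-23a from E11 to E16. In the b cluster miR-27b changed by 1.02 ± 0.24 more than miR-23b. The gap between miR-27 and miR-23 thus had the same sign in both clusters. From E12 to E14 it was within its error in both clusters, at 0.13 ± 0.23 and 0.021 ± 0.237, although quantile normalization gave 0.67 and 0.28. The change of miR-24 lay between those of its b cluster partners, 0.51 ± 0.22 above miR-23b and 0.52 ± 0.23 below miR-27b, and 0.61 ± 0.22 below that of miR-23a. With quantile normalization it was 0.85 ± 0.22 above miR-23b, 0.13 ± 0.23 below miR-27b, which is within the error, and 0.33 ± 0.22 below miR-23a.

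**Figure D3:**
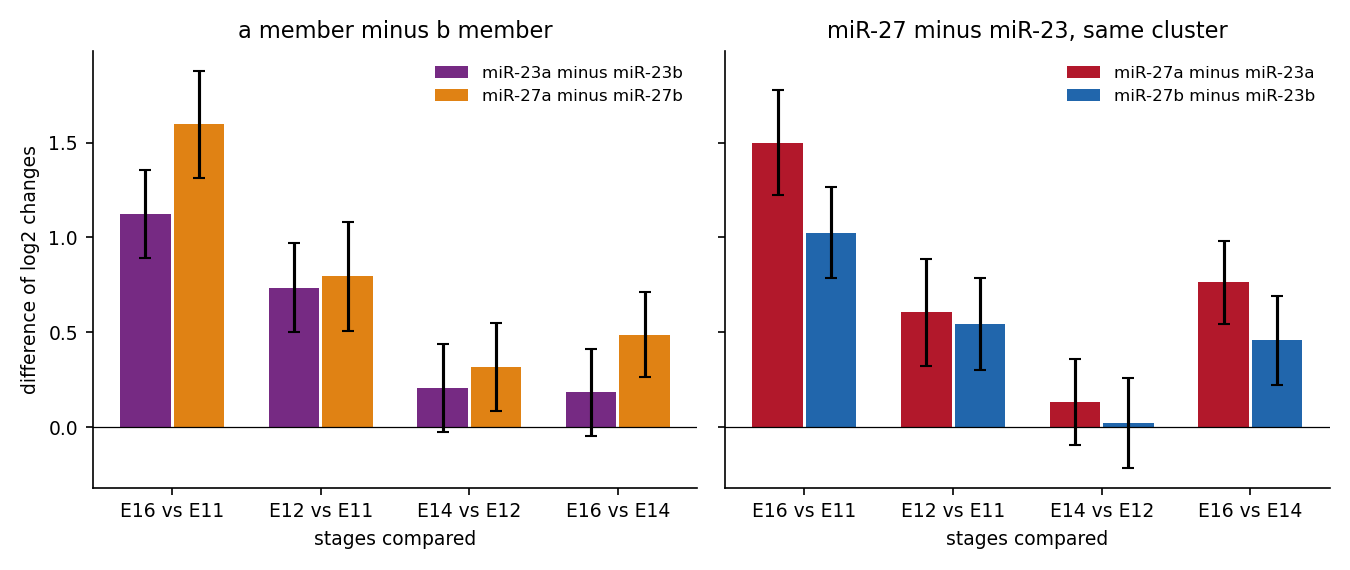
Differences of log2 change between paired members for E16 versus E11 and for each step. Left, the a member minus the b member; right, miR-27 minus miR-23 of the same cluster. Bars start at 0 and error bars are the combined measurement errors of 4 signals. All bars are above 0, the tallest for E16 versus E11, and those for E14 versus E12 are among the shortest.

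Cross-hybridisation bears on these pairs, because miR-27a and miR-27b differ at 1 of 21 positions and the probe sequences were not used here. The likeness of miR-23a and miR-23b was not assessed, since miR-23b had no matched sequence. The part of cross-hybridisation in the result was not tested for either pair.

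The scaled values of each step separate the members further. From E11 to E12 miR-27a was 2.77-fold higher (1.47 ± 0.23), miR-23a 1.82-fold (0.87 ± 0.17), miR-27b 1.60-fold (0.68 ± 0.18) and miR-24 1.44-fold (0.53 ± 0.15). miR-23b was at 0.13 ± 0.17, within its error. Only miR-27a of the 5 was 2-fold higher, where 9.45% of 201 miRNAs were, and 0 of 5 were 2-fold lower, where 8.46% were. At 1.5-fold 3 of 5 were higher, where 19.4% of miRNAs were. On the deposited signals 4 of 5 passed, all but miR-23b, where 22.9% of miRNAs did. The all-miRNA median was -0.20 for this step, and miR-27a ranked 7 of 201.

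From E12 to E14 no member passed 2-fold in either direction, where 12.7% of 212 miRNAs were higher and 15.1% lower. miR-27a (0.47 ± 0.16) and miR-23a (0.34 ± 0.16) differed by more than their errors, and miR-27b (0.15 ± 0.17), miR-23b (0.13 ± 0.17) and miR-24 (0.12 ± 0.15) did not. All 5 lay above the all-miRNA median of -0.40. Under quantile normalization miR-23a fell within its error at 0.16, and miR-23b and miR-24 turned to -0.16 and -0.19. With median scaling all 5 exceeded their errors, miR-27b at 0.39, miR-23b at 0.37 and miR-24 at 0.36. The upper quartile of all miRNAs was 0.52 there, above miR-27b, miR-23b and miR-24 and below miR-27a (0.70) and miR-23a (0.57). The share of all miRNAs past their errors was not counted.

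From E14 to E16 miR-27a was 1.90-fold higher (0.92 ± 0.15) and miR-27b 1.35-fold (0.44 ± 0.17). The other 3 differed by no more than their errors, being 0.16 ± 0.16 for miR-23a, 0.10 ± 0.15 for miR-24 and -0.022 ± 0.164 for miR-23b. No member passed 2-fold, where 7.36% of 231 miRNAs were higher and 13.4% lower. At 1.5-fold 1 member, miR-27a, was higher, where 16% of miRNAs were. miR-27a passed 2-fold on the deposited signals, at 2.43-fold, where 15.6% of miRNAs did. It also passed with the percentile over all probes and with median scaling, where 12.1% and 13% did. The last step exceeded its error under all 5 scalings for the miR-27 members. For the other 3 it depended on the scaling, since the 4 other scalings gave 0.32 to 0.54 for miR-23a, 0.26 to 0.60 for miR-24 and 0.14 to 0.33 for miR-23b.

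Which steps exceeded their measurement errors was read over all 5 scalings. The share of all miRNAs whose steps did so was not counted, so these readings do not set the members apart. For miR-27a each of the 3 steps exceeded its error under every one of them. For miR-27b the first and the last step did, and for miR-23a and miR-24 the first step. For miR-23b no step exceeded its error with the 75th percentile scaling. With quantile normalization the first (0.25 ± 0.17) and the last (0.32 ± 0.16) did, and without scaling all 3 did (0.80, 0.54 and 0.33). The all-miRNA medians of these steps without scaling were 0.47, 0.013 and 0.30. Of the 5 members, 4 were higher at each of the 3 steps after the 75th percentile scaling, all but miR-23b, where 9.64% of the 197 miRNAs were. With median scaling all 5 were, and with quantile normalization 3, without miR-23b and miR-24. The share of all miRNAs was not counted under these other scalings, so those counts have nothing to be read beside.

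**Figure D4:**
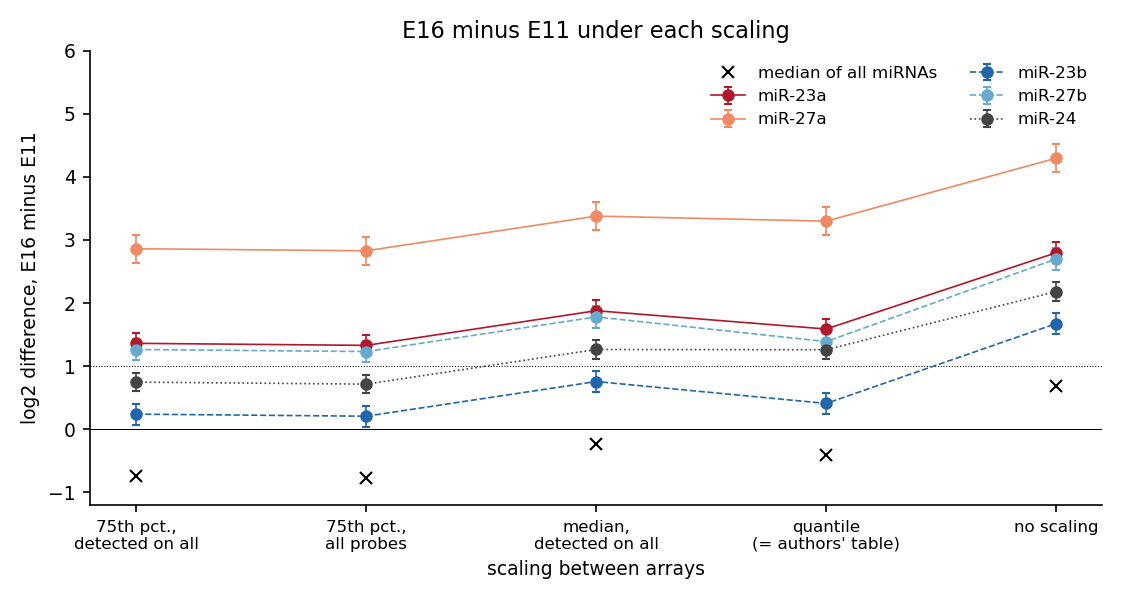
Log2 difference, E16 minus E11, of each member under 5 scalings between arrays. Error bars are combined measurement errors, crosses the median of all 205 miRNAs, and the dotted line 2-fold. The members keep the order miR-27a, miR-23a, miR-27b, miR-24 and miR-23b from top to bottom, and each lies above the cross in every column. A constant scaling cannot alter either, so only the quantile column could have differed.

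Vessel-related miRNAs were read beside the clusters, since miR-23, miR-27 and miR-24 are abundant in endothelial cells. The endothelial marker miR-126-3p had a deposited signal of 226.0 ± 16.8 at E11, 419 ± 31 at E12, 411 ± 30 at E14 and 757 ± 54 at E16. It was 0.31 ± 0.15 higher at E16 than at E11 after scaling. Its partner miR-126-5p was at -0.12 ± 0.45. The summed endothelial signal was 239.8, 445.5, 427.0 and 791.4 over the 4 stages, most of it from miR-126-3p. Such a sum over probes is not an amount. Both miRNAs were detected throughout. Neither was 2-fold higher at E16 than at E11 after scaling (13.7% of all miRNAs were), and both were on the deposited signals (44.9%).

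From E11 to E16 miR-27a changed by 2.55 ± 0.27 more than miR-126-3p, miR-23a by 1.05 ± 0.22 more, miR-27b by 0.96 ± 0.23 more and miR-24 by 0.44 ± 0.21 more. These 4 differences were also positive with quantile normalization, the only scaling that can alter them, where that of miR-24 was 0.89. miR-23b differed from miR-126-3p by -0.070 ± 0.223, within the error. From E12 to E14 every member changed by more than miR-126-3p, from 0.56 ± 0.21 for miR-24 to 0.91 ± 0.22 for miR-27a. With quantile normalization the excess in that step was 0.092 for miR-24 and 0.12 for miR-23b, both within the error. The last step was negative for every member but miR-27a, though within the error for miR-27b. From E14 to E16 miR-23b was at -0.55 ± 0.22 relative to miR-126-3p, miR-24 at -0.42 ± 0.21, miR-23a at -0.36 ± 0.22 and miR-27b at -0.090 ± 0.221, while miR-27a was at 0.40 ± 0.21. With quantile normalization miR-23b alone stayed negative, at -0.19. In a bulk sample, more cells of a type and more of the miRNA per cell cannot be told apart.

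Of all 8 vessel-related miRNAs fixed as a list, 4 were detected at both E11 and E16, of which 1 passed 2-fold upward and 0 downward after scaling (13.7% and 37.6% of all miRNAs). On the deposited signals all 4 passed upward (44.9%). Their median was 0.094, between the -0.74 of all miRNAs and the 1.26 of the members. The 1 was miR-143, a smooth muscle miRNA, with signals of 14.5 ± 3.7, 52.5 ± 7.4, 65.8 ± 6.9 and 124.5 ± 10.7 (1.67 ± 0.39 after scaling). miR-130a was at -0.43 ± 0.15, turning to 1.003 on the deposited signals. The hypoxia-induced miR-210 was undetected at E11 and had 83.2 ± 8.8, 162.1 ± 12.8 and 265.8 ± 20.1 from E12 on. miR-221 was detected at E14 and E16 only, and miR-145 and miR-222 at no stage.

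The blood cell markers that were detected also had higher deposited signals at later stages, where the arrays were brighter. The erythroid miR-451 was at 0.15 ± 0.15 for E16 minus E11 after scaling. The summed deposited signal of 3 erythroid markers was 404.2, 421.8, 665.3 and 1230 over the stages, with miR-486 undetected. Of 5 leukocyte markers, 0, 1, 1 and 2 were detected over the stages, where 30.0%, 31.8%, 35.8% and 35.9% of all miRNA probes were. Their summed deposited signals were 17.6, 32.6 and 146.8 from E12 on. The epithelial list gave summed deposited signals of 1795, 3382, 5363 and 9364 over the stages, and the mesenchymal list 9323, 14120, 8664 and 9511. At E16 miR-205 alone gave 5317 of the epithelial sum and miR-199a-3p 5760 of the mesenchymal sum. Sums over probes are not amounts and rest largely on the brightest probe. After scaling, the 6 epithelial miRNAs detected at both E11 and E16 had a median difference of 1.35. The 4 mesenchymal ones had -1.01, all miRNAs -0.74 and the 5 members 1.26. Upward, 4 of the 6 and 0 of the 4 passed 2-fold (13.7% of all miRNAs). Downward, 0 of the 6 and 2 of the 4 did (37.6%). On the deposited signals the list medians were 2.78 and 0.43, where all miRNAs had 0.69. The part of these cell types in the courses of the 5 members was not tested.

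miR-23a is also 1 of 11 miRNAs known to target Runx2 in mouse osteogenic cells, and 4 of these were detected at both E11 and E16. miR-23a was the 1 that passed 2-fold after scaling (13.7% of all miRNAs). The epithelial miR-205 was at 0.66 ± 0.15, the Slit-hosted miR-218 at 0.056 ± 0.171 and miR-30c at -0.011 ± 0.174. All 4 passed 2-fold on the deposited signals (44.9%). miR-338-3p was detected at E14 (12.5 ± 3.7) and E16 (38.6 ± 5.7), miR-137 at E12 and E16, and miR-135a at E12 alone. miR-34c, miR-133a, miR-204 and miR-217 were detected at no stage.

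The nearest other miRNA genes with a probe on the array, Mir181c and Mir181d, lie before the a cluster on chromosome 8 and were picked after their values were seen. miR-181c had signals of 68.8 ± 7.1, 125.8 ± 11.6, 147.3 ± 12.2 and 213.9 ± 17.1 and was at 0.20 ± 0.19 for E16 minus E11. miR-181d was at -0.23 ± 0.17. Both values are below those of miR-23a and miR-27a.

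The courses most like each member were found by the root mean square distance between centred log2 values at the 4 stages, over the 196 other miRNAs detected throughout. For miR-27a they were miR-22 (distance 0.15), let-7c (0.27) and miR-200a (0.29). For miR-23a they were let-7d (0.12), miR-30a (0.13) and miR-365 (0.13). For miR-27b they were miR-30a (0.022), miR-429 (0.054) and miR-98 (0.14), with miR-23a next at 0.14.

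For miR-23b the nearest courses were miR-425 (0.044), miR-30d (0.091) and miR-181c (0.12). For miR-24 they were miR-181a (0.087), miR-200b (0.12) and miR-484 (0.13). No fellow member was among these 3 for any of the 5, but with quantile normalization miR-23a was the third nearest to miR-27b (0.099) and miR-27b the third nearest to miR-24 (0.13). The course of miR-27a stood 171 of 196 in likeness to that of miR-23b, at a distance of 0.94. With quantile normalization 3 of the 15 names were kept, so the names depend on the scaling.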

How the data were processed

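For each stage 100 ng of total RNA was end-labelled with Cy3 and hybridised to an Agilent miRNA array, per the labels' protocols. The files hold 1 intensity per miRNA, the total gene signal of an array, with its error and a detection flag, per the file headers. The sources used here do not give the software or background method. The authors' series table holds intensity too. Its detected values matched a quantile normalization of all deposited features within 1.15e-05 percent, and it served as an alternative.

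The 22 control features were left out. Signals were divided by the 75th percentile of each array over the 197 miRNAs detected on all 4, and log2 was taken. Errors of differences combine the stated errors in quadrature. "2-fold" is a rule of size. Alternatives were the percentile over all probes, the median, quantile normalization, no scaling, the authors' table, a 1.5-fold rule, 2-fold beyond 1.96 errors, and a background of miRNAs detected throughout. On simulated data, known changes came back around an offset common to an array. Differences of change, in which such an offset cancels, were therefore preferred. The members, lists and comparisons were chosen with earlier results of these data known. Named were the members, their other arms, the lists' miRNAs, the nearest miRNA genes of the a cluster and the 3 nearest courses per member. Python 3.11.15, numpy 2.4.6 and pandas 2.3.3 were used.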

Additional observations from a re-analysis of the deposited data

How the results depend on the processing

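With 1 array per stage, error between animals is unknown and limits every statement. No paired analysis was possible because no stage has a second array. The authors' table and quantile normalization gave equal values. Under both, miR-27a minus miR-27b was 1.91 for E16 versus E11, 0.72 for E14 versus E12 and 0.24 for E16 versus E14. The members' median minus that of all miRNAs was 1.80 for E16 versus E11 and 0.53 for E16 versus E14, against 2.01 and 0.22 with the 75th percentile. The members' median moved to 1.78 (median scaling) and 2.70 (no scaling) for E16 versus E11. It moved to 0.49 (75th percentile over all probes) and 1.35 (no scaling) for E12 versus E11, and to 0.39 (median scaling) and 0.56 (no scaling) for E14 versus E12. For E16 versus E14 it moved to 0.41 (median scaling), 0.52 (no scaling) and 0.60 (quantile normalization and the authors' table). Members 2-fold higher numbered 5 without scaling for E16 versus E11, where 44.9% of all miRNAs were. For E12 versus E11 they numbered 4 without scaling (22.9% of all miRNAs) and 3 at 1.5-fold (19.4%). For E16 versus E14 there was 1 with the percentile over all probes, with median scaling, without scaling and at 1.5-fold. The shares of all miRNAs there were 12.1%, 13%, 15.6% and 16%. miR-23b turned to -0.051 for E12 versus E11 with the percentile over all probes. For E14 versus E12 quantile normalization and the authors' table turned miR-23b to -0.16 and miR-24 to -0.19. For E16 versus E14 miR-23b turned to 0.14 (percentile over all probes), 0.23 (median scaling), 0.32 (quantile normalization and the authors' table) and 0.33 (no scaling). Relative to miR-126-3p, quantile normalization and the authors' table turned miR-23b to 0.12 for E12 versus E11 and 0.043 for E16 versus E11. For E16 versus E14 they turned miR-23a to 0.032, against -0.36 with the 75th percentile, miR-24 to 0.089, against -0.42, and miR-27b to 0.090, against -0.090. Leaving the E14 array out of the choice of scaling miRNAs, an alternative added after seeing the data, selected the same 197 and changed nothing. The cause of these shifts was not tested.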
